A study of Homo sapiens with 7 samples.

Results

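Of the 10391 gene TSSs called by Start-seq in human T47D/A1-2 cells, 2784 (26.8%) carried no antisense TSS on either side and had no divergent neighbour. They are called unaccompanied gene TSSs here. They were selected on 3 absences in the deposited calls: no upstream antisense TSS (uaTSS), no downstream antisense TSS (daTSS), and no other gene TSS on the opposite strand 1 to 1000 nt upstream. The absence of antisense calls is therefore the definition of the group and not a result. The comparison group is the 6409 non-divergent gene TSSs with an antisense call, called accompanied gene TSSs. Among these, 3538 had a uaTSS only, 1084 a daTSS only and 1787 both. The remaining gene TSSs were divergent, 947 without an antisense call and 251 with one, and belong to neither group.

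T-47D is a line of luminal breast cancer cells, and its A1-2 subline was engineered with extra glucocorticoid receptor of rat origin and with a luciferase gene under the MMTV promoter in its genome. All samples are of this line, grown with 10% serum and then kept for at least 24 hours in 5% stripped serum, with no second condition. Start-seq maps the 5′ ends of short capped RNAs, and RNA-seq gave 1 FPKM value per gene (fragments scaled to transcript length and to library size). The TSS calls came from 1 of 2 Start-seq libraries and the FPKM values from 3 merged RNA-seq replicates, so no value below has a replicate error and no difference was tested.

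Promoters of mammalian genes lie in nucleosome-depleted regions, where RNA polymerase II often initiates in both directions. The upstream antisense products are mostly short and unstable. CpG islands are stretches rich in G, C and CpG that cover most promoters of broadly expressed genes, whereas a TATA element directs initiation to a fixed distance downstream and is common at tissue-specific or inducible genes.

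The RNA carried the markers of its label. The 9 luminal markers examined ranged from an FPKM of 44.1 (ESR1, the estrogen receptor) to 1142 (KRT8, a simple-epithelial keratin). The 10 markers of other cell types had a median of 0.0271, with the highest at 8.82 (COL1A1, a fibroblast collagen), and the basal keratins KRT5 and KRT14 were listed at 0.

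The promoters of 6 unaccompanied gene TSSs are shown, the 4 with the highest gene FPKM (PIP, S100A11, EEF2 and PKM) and OAZ1 and TXN, the next highest with a TATA element. The last pair was chosen for that element, so TATA elements are more frequent here than among the unaccompanied as a whole. The sequences run from 50 nt upstream to 10 nt downstream of the start in the orientation of the gene, from GRCh37 (hg19). The capital pair marks the bases at -1 and +1, and a run of 5 capitals further upstream marks a TATA element (TATAA or TATAT starting from -35 to -24).
PIP, chr7:142829120-142829179, plus strand: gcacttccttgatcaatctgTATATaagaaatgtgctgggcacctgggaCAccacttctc
S100A11, chr1:152009439-152009498, minus strand: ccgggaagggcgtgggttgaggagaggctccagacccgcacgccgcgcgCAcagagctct
EEF2, chr19:3985452-3985511, minus strand: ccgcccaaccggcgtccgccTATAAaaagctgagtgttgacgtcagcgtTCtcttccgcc
PKM, chr15:72521725-72521784, minus strand: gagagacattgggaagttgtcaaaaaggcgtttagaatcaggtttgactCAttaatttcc
OAZ1, chr19:2269474-2269533, plus strand: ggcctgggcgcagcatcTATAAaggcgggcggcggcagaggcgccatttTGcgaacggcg
TXN, chr9:113018778-113018837, minus strand: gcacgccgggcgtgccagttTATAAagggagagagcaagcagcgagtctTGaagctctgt

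PIP, which encodes prolactin-induced protein, a secreted product of breast epithelium, had the highest FPKM among them, at 1194. Its TATAT starts at -30, its window is 46.7% GC, and no CpG island covers its start. S100A11, a calcium-binding protein, followed at 1165, with no TATA element and 71.7% GC in the same window, also outside an island. EEF2, the elongation factor that translocates the ribosome, had an FPKM of 672 and a TATAA at -30 within an island. PKM, the pyruvate kinase of glycolysis, had an FPKM of 533 and the lowest GC of the 6 windows, at 38.3%. OAZ1 (antizyme, an inhibitor of polyamine synthesis; FPKM 350) and TXN (thioredoxin; FPKM 243) had TATAA at -33 and -30. S100A11 and PKM had neither a TATA element nor an island. The rest of the 10 highest were SCD (a fatty acid desaturase; 528), JUP (plakoglobin of cell junctions; 442), AP2M1 (a clathrin adaptor subunit; 427), GNAS (a G protein subunit; 404), RPS4X (a ribosomal protein; 401) and S100A10 (391.8).

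A called position need not be the main start of its gene. The SCD position lies 833 nt from the nearest annotated start on its strand, and an annotated start on the other strand lies 10 nt upstream of it. The PKM position lies 329 nt from an annotated start. FPKM belongs to a gene and not to a start, so where a gene has several gene TSSs they share 1 value.

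The limit of 1000 nt that defines divergence falls where few gene TSSs lie. Just inside the rule were APBA3 and MRPL54, which face away from each other at 1018 nt, and FARS2 at 1025 nt. Just outside were CDCA2 at 978 nt, RPL7 at 970 nt and BLVRB at 967 nt. In the 100 nt beyond the limit, 8 of the gene TSSs lacked an antisense call and 20 had one. In the 100 nt within it, 10 lacked a call and 12 had one. Over the 500 nt within the limit, 53.8% of 223 gene TSSs lacked a call (exact interval 47.0% to 60.5%). Over the 500 nt beyond it, 28.4% of 81 did (18.9% to 39.5%). The share without a call was thus lower beyond the limit. An absent call does not show that antisense transcription is absent: either no position searched reached the authors' read threshold, or a daTSS that reached it was removed by their filters.

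**Figure D1:**
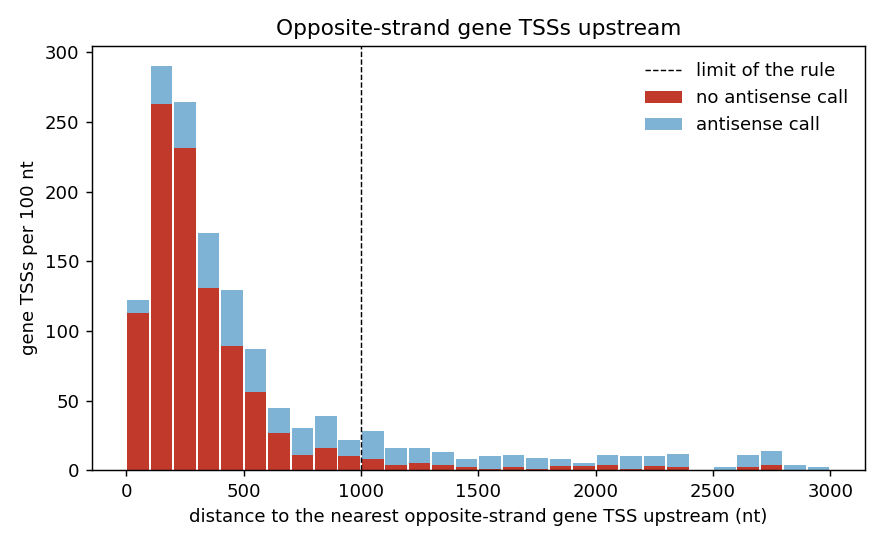
Number of gene TSSs per 100 nt of distance to the nearest opposite-strand gene TSS upstream, split by the presence of an antisense call, with the limit of the rule as a dashed line. Without a call were 263 gene TSSs at 101 to 200 nt and 8 in the first 100 nt beyond the limit.

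The genes of unaccompanied gene TSSs had lower FPKM. Their median was 12.1 (quartiles 3.65 and 32.6, n = 2756 with FPKM; exact 95% interval of the median 11.1 to 13.1). The accompanied gene TSSs had a median of 18.5 (quartiles 7.45 and 43.7, n = 6369; interval 17.8 to 19.2). On the scale of log2(FPKM + 0.1), the median of the unaccompanied minus that of the accompanied was -0.61, and it was -0.34 among genes with an FPKM of at least 1. The distributions overlapped widely: 60.9% of the unaccompanied (exact interval 59.1% to 62.7%) were below the accompanied median. These intervals cover the counting of gene TSSs and not the variation between libraries.

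The medians differed by the kind of antisense call. Gene TSSs with only a daTSS had a median FPKM of 13.0 (interval 11.6 to 14.5), and this interval overlapped that of the unaccompanied. Those with only a uaTSS had 18.6 (17.7 to 19.8), and those with both calls 21.3 (19.7 to 23.1).

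Low values were more frequent among the unaccompanied. An FPKM under 1 was found at 11.8% of the unaccompanied (326 of 2756, exact interval 10.6% to 13.1%), against 5.98% of all gene TSSs with a value. It was found at 3.58% of the accompanied: 3.59% with only a uaTSS, 5.41% with only a daTSS and 2.47% with both. Values from 10 to under 100 made up 48.2% of the unaccompanied, 58.2% of the accompanied and 51.3% of those with only a daTSS. An FPKM of 100 or more was found at 6.17% of the unaccompanied (5.30% to 7.13%), against 8.68% of all gene TSSs, and at 9.56% of the accompanied. By kind of call it was 9.91% with only a uaTSS, 6.34% (4.95% to 7.97%) with only a daTSS and 10.8% with both. At an FPKM of 100 or more the unaccompanied were thus level with gene TSSs with only a daTSS, whereas under 1 their share was larger.

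An FPKM of exactly 0 was listed for 26 gene TSSs, and 15 of them were unaccompanied. This was 0.54% of the unaccompanied with a value (exact interval 0.30% to 0.90%), against 0.25% of all gene TSSs. With only a daTSS it was 0.37% (0.10% to 0.95%), an overlapping interval. The 5 longest of these genes were PGM5, PELI2, C5orf64, MAPK4 and SLCO4C1. At these starts capped RNA was called although the gene is listed at 0 in the RNA-seq table.

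**Figure D2:**
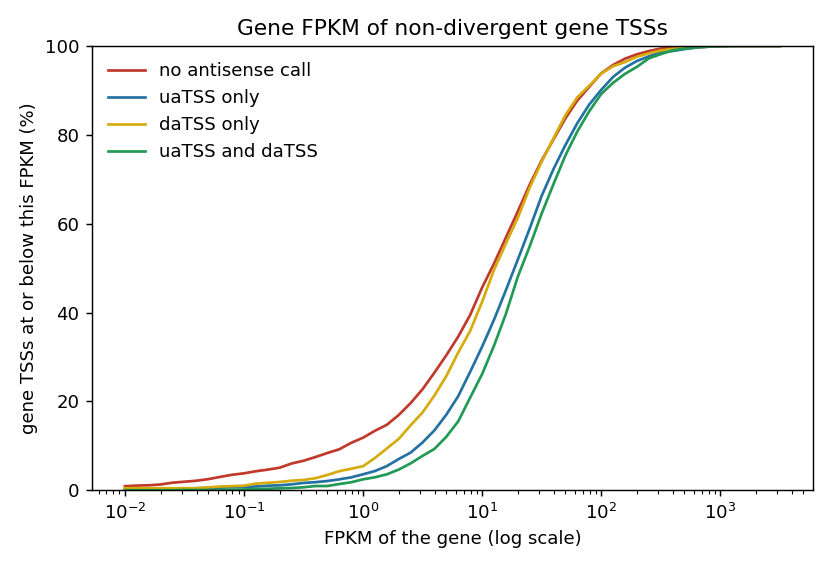
Cumulative percent of non-divergent gene TSSs at or below each gene FPKM (log scale), for those without an antisense call and for those with a uaTSS only, a daTSS only or both. The medians were 12.1, 18.6, 13.0 and 21.3, and the curve of gene TSSs without a call lies highest at low FPKM.

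When all gene TSSs were cut into deciles of FPKM, the share of unaccompanied among the non-divergent was 50.9% in the lowest decile (477 of 938, exact interval 47.6% to 54.1%) and 36.5% in the next. It lay between 25.3% and 30.1% from the third to the ninth decile. In the highest decile, with FPKM above 90.1, it was 23.03% (208 of 903, 20.3% to 25.9%). Most of the gradient was thus in the lowest 2 deciles, below an FPKM of 4.87. Start-seq reads at the gene TSS were not analysed here, so the part of sequencing depth in this gradient was not tested.

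A CpG island covered fewer of the unaccompanied gene TSSs. The share was 73.8% (2055 of 2784, exact interval 72.1% to 75.4%), against 82.7% of all gene TSSs. It was 87.1% with only a uaTSS, 76.0% with only a daTSS and 89.5% with both. Turned around, 44.7% of the 1631 non-divergent gene TSSs outside islands were unaccompanied (42.3% to 47.1%), and 27.2% of the 7562 within islands (26.2% to 28.2%).

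The share was higher outside islands at each level of FPKM, and in both sets it was highest in the lowest FPKM decile. In the lowest FPKM decile, 62.5% of the gene TSSs outside islands were unaccompanied (interval 56.5% to 68.2%) and 46.0% of those within islands (42.1% to 49.9%). In the highest decile the values were 37.8% (30.0% to 46.2%) and 20.1% (17.3% to 23.2%). Outside islands the share was 45.0% in the next lowest decile and lay between 36.2% and 43.7% from there on. The intervals from that decile on overlapped, so that only the lowest decile stood apart. The deciles within islands held more gene TSSs. There the share was 34.3% (30.9% to 37.8%) in the next lowest decile and between 20.1% and 27.9% from there on. Within islands the unaccompanied had a median FPKM of 12.6 and the accompanied 18.9. Outside islands the medians were 10.1 and 15.4.

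**Figure D3:**
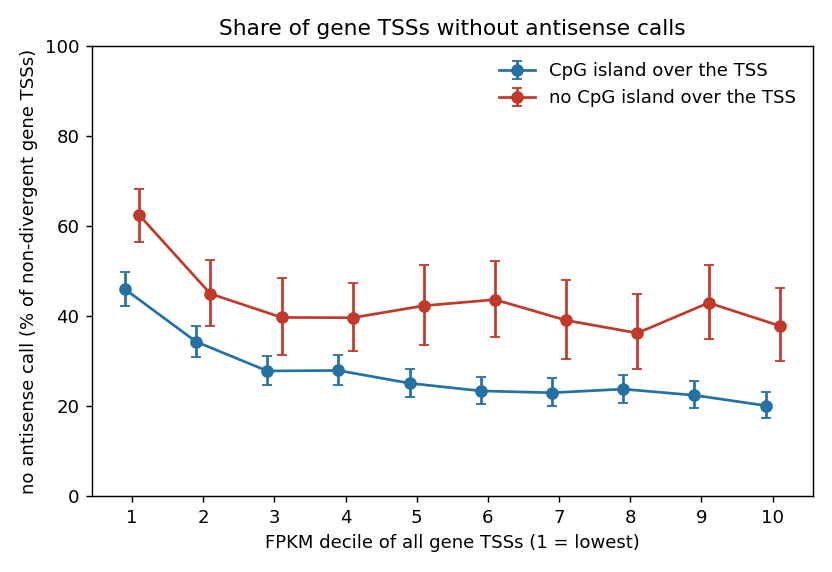
Percent of non-divergent gene TSSs that lack an antisense call, by FPKM decile of all gene TSSs, within and outside CpG islands, with exact 95% intervals for counting error. The points outside islands lie above those within islands in all 10 deciles, from 62.5% against 46.0% to 37.8% against 20.1%.

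The highest FPKM values outside islands belonged to PIP, S100A11, PKM, SCD and COX7C (a subunit of cytochrome c oxidase, 324). Of the luminal and epithelial genes named below, SPDEF, ESR1, MYB, PRSS8 and TJP3 had their unaccompanied start outside islands and JUP within one. Of the 8 unaccompanied starts of epithelial junction and surface genes, 62.5% were within islands.

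Where an island covered the start, it reached less far upstream than at gene TSSs with a uaTSS. The upstream edge was at a median of 300.0 nt (interval 283 to 314) for the unaccompanied, 387 nt (372 to 400.0) with only a uaTSS, 372 nt with both and 275 nt (254 to 306) with only a daTSS. The downstream edge was at 507 nt for the unaccompanied, 477 nt with only a uaTSS, 526 nt with both and 597 nt (571 to 642) with only a daTSS. The order of the groups thus differed between the sides.

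GC content followed a similar pattern. In the 100 nt centred on the start, the median was 67.0% for the unaccompanied and 68.0% for the accompanied. From 300 to 250 nt upstream, the mean was 56.6% for the unaccompanied, 55.8% with only a daTSS, 60.6% with only a uaTSS and 60.6% with both. From 500 to 550 nt downstream, it was 59.2% for the unaccompanied, 62.1% with only a daTSS, 57.7% with only a uaTSS and 59.4% with both. Upstream of the start the unaccompanied thus lay close to gene TSSs with only a daTSS. In every 50-nt bin from the start to 250 nt downstream they had the lowest mean of the 4 groups (66.3% from 100 to 150 nt, against 67.2% with only a uaTSS, 67.6% with only a daTSS and 69.0% with both), and farther downstream they were no longer the lowest.

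**Figure D4:**
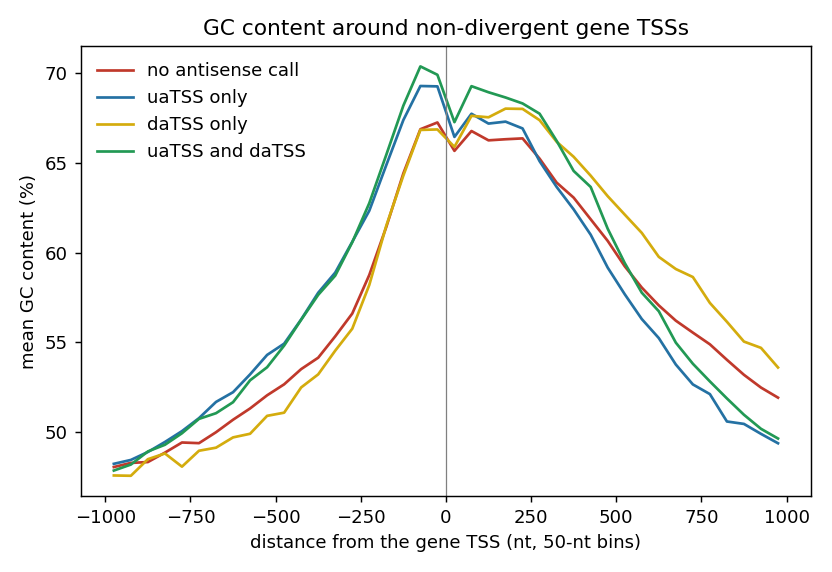
Mean GC content in 50-nt bins from 1000 nt upstream to 1000 nt downstream of non-divergent gene TSSs, for those without an antisense call and for those with a uaTSS only, a daTSS only or both. Upstream, the curve without a call runs with that of daTSS only, at 56.6% and 55.8% in the bin from 300 nt upstream.

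Core promoter sequence differed little. TATAW (TATAA or TATAT), starting from -35 to -24 on the strand of the gene, was found at 95 unaccompanied gene TSSs (3.41%, exact interval 2.77% to 4.16%), against 312 of all 10391 gene TSSs. It was found at 2.66% with only a uaTSS, 3.23% with only a daTSS and 3.30% with both. Unaccompanied gene TSSs with TATAW had a median FPKM of 9.62 (quartiles 1.69 and 49.3, n = 95; interval 2.84 to 22.1). Accompanied gene TSSs with TATAW had a median of 35.6 (quartiles 8.15 and 95.9, n = 188; interval 22.8 to 47.2). A pyrimidine at -1 with a purine at +1 was present at 65.3% of the unaccompanied and 66.1% of the accompanied.

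Motifs upstream of the start differed more. The GC box, GGGCGG on either strand within 100 nt upstream, is bound by Sp family factors. It was found at 47.4% of the unaccompanied (exact interval 45.5% to 49.3%), against 50.2% of all gene TSSs, and at 53.7% with only a uaTSS, 44.004% with only a daTSS and 54.0% with both. The core of many ETS factor sites, CCGGAAG on either strand, was in the same window at 8.51% of the unaccompanied (7.50% to 9.61%), 12.2% with only a uaTSS, 6.92% with only a daTSS and 13.2% with both, and at 11.3% of all gene TSSs. The cyclic AMP response element, TGACGTCA within 150 nt upstream, was at 1.44% of the unaccompanied (1.03% to 1.95%) and 2.35% of all gene TSSs. It was at 3.14% with only a uaTSS, 1.66% (0.987% to 2.61%) with only a daTSS and 2.18% with both. CCAAT on either strand, in the same 150 nt, was at 24.7% of the unaccompanied and 25.3% of all gene TSSs. In GC box and ETS core the unaccompanied thus lay below gene TSSs with a uaTSS. The shares with only a daTSS were lower still, but their intervals (41.0% to 47.0% and 5.48% to 8.60%) overlapped those of the unaccompanied. These are matches of letters, and binding was not measured.

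Neighbours in the annotation were not named in the rule, but they bear on its daTSS calls. The authors dropped daTSSs within 1000 nt of an annotated start on the daTSS strand. The part of that filter in the shares below was not tested. An annotated transcript start on the opposite strand, 1 to 1000 nt upstream, was found at 23.5% of the unaccompanied (654, exact interval 21.9% to 25.1%), against 33.3% of all gene TSSs, which include the divergent. The accompanied had 25.3%. With protein-coding neighbours alone, the order of the pooled groups was the opposite. A protein-coding start lay there at 9.88% of the unaccompanied (8.79% to 11.05%) and 7.43% of the accompanied, but gene TSSs with only a uaTSS, at 9.53% (8.58% to 10.5%), were level with the unaccompanied. With only a daTSS the share was 4.15%, and with both calls 5.26%. A lncRNA start lay there at 12.3% of the unaccompanied (11.1% to 13.6%), 18.3% with only a uaTSS, 9.32% with only a daTSS and 17.9% with both. OAZ1, RPS2, HLA-C and HSP90B1 are unaccompanied gene TSSs with an annotated opposite-strand start 117, 69, 130 and 199 nt upstream. Annotated lncRNAs can themselves be upstream antisense transcripts, so this measure is not independent of how antisense RNAs were catalogued.

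A called gene TSS on the opposite strand 1 to 2000 nt downstream, a convergent neighbour, was found at 151 unaccompanied gene TSSs (5.42%, exact interval 4.61% to 6.33%), against 3.14% of all gene TSSs. It was found at 4.49% with only a uaTSS, at 0.06% with both calls and at 0 of 1084 with only a daTSS, for which the exact interval reaches 0.340%. The authors called gene TSSs near annotated starts, and removed daTSS calls that lay near an annotated start on their own strand. A daTSS at the start of a convergent neighbour was thus open to removal. The low counts with a daTSS, here and below, are therefore in part built into the calls and are not a separate result. How far the filter also raised the share of the unaccompanied was not tested. Of the 202 non-divergent gene TSSs with a convergent neighbour within 500 nt, 88 were unaccompanied and 0 had a daTSS. HMGXB3 (75 nt) and CXCL16 and ZMYND15 (103 nt from each other) were chosen as examples after their distances were seen.

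Some antisense calls near the unaccompanied gene TSSs were credited to another start. An antisense TSS of another gene TSS lay on the opposite strand 1 to 1000 nt upstream of 17 of them and 1 to 2000 nt downstream of 57. For the other 2710 of the 2784, the lists hold no antisense TSS in either window. The median distance to the nearest called gene TSS on either strand was 45048 nt for the unaccompanied and 45609 nt for the accompanied. No other gene TSS lay within 5000 nt for 84.8% and 88.8%.

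The called start lay farther from annotated starts than at gene TSSs with a uaTSS, and nearer than at those with only a daTSS. The nearest annotated transcript start on the same strand was more than 100 nt away for 24.2% of the unaccompanied (exact interval 22.6% to 25.9%), 16.6% with only a uaTSS, 27.6% with only a daTSS and 13.8% with both. The median distance was 15 nt, 10 nt, 23 nt and 9 nt in the same order. Genes spanned a median of 33093 nt for the unaccompanied (interval 31235 to 35136) and 34842 nt for the accompanied (33451 to 36475), which overlapped. The first exon had a median of 178 nt and 173 nt. Protein-coding genes made up 99.5% of the unaccompanied with an assigned gene.

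The X chromosome had the highest share of unaccompanied gene TSSs, 37.2% of 320 (exact interval 31.9% to 42.7%), against 26.8% of all gene TSSs. The lowest was on chromosome 3, 21.2% of 617 (18.1% to 24.7%). Among the non-divergent alone, the share was 39.9% on X and 24.3% on chromosome 3, against 30.3% on all chromosomes. Chromosome 18 had 36.1% of 147 (28.3% to 44.4%) and chromosome 19 had 32.2% of 754 (28.9% to 35.7%). On X, the median FPKM was 17.4 at the unaccompanied and 15.9 at gene TSSs with an antisense call. The unaccompanied also had the higher median on chromosomes 21 (15.04 against 10.6) and 13 (11.44 against 11.35), and the lower one on the other 20 of the 23 chromosomes. RPS4X (401) and MAGED2, a MAGE family protein (291), had the highest FPKM of the unaccompanied on X. By strand, the share was 26.6% on plus and 27.03% on minus.

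Among genes with several gene TSSs, 181 had both an unaccompanied start and one with an antisense call, which made 201 pairs. Starts with a call were taken whether divergent or not, and some genes gave several pairs that share a start. The starts lay a median of 3926 nt apart (quartiles 1016 and 23557). The unaccompanied start was the downstream one in 89 pairs and the upstream one in 112. An island covered the unaccompanied start in 113 pairs and the start with the call in 143. In 32 pairs only the unaccompanied start was in an island, and in 62 only the start with the call. Across these pairs, too, islands were thus more frequent at the start with the antisense call, which was not counted with genes as units.

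The 5 such genes with the highest FPKM differed in layout. The unaccompanied start lay 1819 nt downstream of a start with a uaTSS in PKM, and 1788 nt downstream of one in LDHA, the lactate dehydrogenase subunit (298). In GNAS, it lay 52086 nt upstream of a start with a uaTSS. In MAGED2 it lay 1384 nt, and in CLIC1, a chloride channel protein (278), 231 nt upstream of a start with a daTSS.

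The gene classes examined were 29 lists, which together hold 1217 gene TSSs, and 24.4% of these were unaccompanied (exact interval 22.0% to 26.9%), against 26.8% of all gene TSSs. Of the 20 lists with at least 20 gene TSSs, 17 had an interval that includes 26.8%. The exceptions were all below it.

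Cytosolic ribosomal proteins, the structural proteins of the ribosome, were unaccompanied at 8 of 79 gene TSSs (10.1%, interval 4.47% to 18.98%), and 61 carried an antisense call. The 8 had a median FPKM of 98.7 and the 61 a median of 226. RPS4X (401), RPLP0 (208) and RPS2 (177) were the highest of the 8, and the starts of RPLP0 and RPS2 have a TATA element. Near-identical pseudogenes make FPKM values of this class uncertain. Splicing factors were unaccompanied at 7 of 61 (11.5%, 4.74% to 22.2%), among them SF3B5 (124), SNRPA (69.9) and SNRPN (42.1), and 49 carried an antisense call. Clustered histones, which package new DNA in S phase, were unaccompanied at 5 of 49 (10.2%, 3.40% to 22.2%), where 22 were divergent. Among the non-divergent histone gene TSSs the share was 18.5% (6.30% to 38.1%), against 30.3% of all 9193 non-divergent gene TSSs, which that interval includes.

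Other housekeeping classes were nearer to the background. Mitochondrial ribosomal proteins were unaccompanied at 14 of 73, with MRPL28 (194), MRPL21 (108) and MRPS7 (100.1) the highest. Oxidative phosphorylation subunits were unaccompanied at 20 of 81, with COX7C (324), COX6B1 (312) and ATP5F1A (287). Proteasome subunits were unaccompanied at 9 of 42, with PSMB1 (246), PSMA2 (151) and PSMD12 (84.2), and aminoacyl-tRNA synthetases at 5 of 34, with MARS1 (98.3), FARSA (87.5) and HARS1 (68.9). The 13 of 41 in DNA replication included POLD2 (164), RFC4 (125) and MCM7 (99.9), and the 7 of 21 among glycolytic enzymes PKM, LDHA and PFKP (80.7). Each of these 3 genes also has a start with a uaTSS, and with genes as units, counted only where all their starts are unaccompanied, the glycolytic share was 17.6% of 17 in place of 33.3%.

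Transport, folding and trafficking genes also spread on both sides of the background. Solute carriers were unaccompanied at 44 of 173, including the amino acid transporters SLC1A5 (127), SLC3A2 (104) and SLC7A5 (97.6). Heat shock and J proteins were so at 19 of 57, including HSP90B1 (245), DNAJC8 (71.3) and DNAJC14 (68.5), and RAB GTPases at 13 of 42, including RAB3D (68.5), RAB10 (53.4) and RAB9A (44.2). Kinesins were unaccompanied at 4 of 25, with KIF20A, KIF21A and KIF14 at 26.8, 14.9 and 8.68. BAF subunits, of the SWI/SNF chromatin remodeller, were so at 6 of 22, with SMARCE1 (119), SMARCD1 (46.1) and ARID2 (13.95). Zinc finger genes of chromosome 19 were unaccompanied at 63 of 199 (31.7%, interval 25.3% to 38.6%). ZNF580 (32.0) and ZNF581 (11.9), whose starts lie 820 nt apart, were both among them.

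Signalling and lineage classes were small, and their intervals are wide. Luminal transcription factors were unaccompanied at 4 of 22, and the other 18 carried an antisense call. SPDEF (an ETS factor, 233), ESR1 (44.1) and MYB (5.79) were the highest of the 4, and ESR1 has another start with both antisense calls. Estrogen-responsive genes were so at 3 of 17, SERPINA1 (15.9), CELSR2 (9.78) and MYB. Glucocorticoid-responsive genes were so at 7 of 19 (36.8%, interval 16.3% to 61.6%), led by FKBP5, a receptor cochaperone (70.6), MT2A, a metallothionein (35.0), and CRISPLD2 (5.24). Immediate early genes were unaccompanied at 7 of 34, led by IER3 (72.8), ZFP36L1 (42.4) and JUNB (34.8), all in islands. Interferon-stimulated genes were so at 8 of 30, led by IFI27 (109), OAS1 (22.5) and IRF7 (11.2), and genes of MHC class I presentation at 5 of 13, led by TAPBP (65.0), PSMB8 (34.9) and HLA-C (29.7).

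Epithelial junction and surface genes were unaccompanied at 8 of 27, with JUP, PRSS8 (a membrane serine protease, 132) and TJP3 (a tight junction scaffold, 67.2) the highest, and S100 genes at 4 of 9, with S100A11, S100A10 and S100A16 (290.2). Tripartite motif genes were so at 9 of 33, with TRIM3 (42.2), TRIM32 (18.1) and TRIM39 (9.89), and tetraspan genes at 2 of 11, TSPAN15 (61.5) and TSPAN6 (8.64). HOX genes were unaccompanied at 3 of 8 (HOXC9, HOXB7 and HOXC5, at 8.51, 3.59 and 2.39), keratins at 1 of 5 (KRT222, 3.91), claudins at 1 of 4 (CLDN23, 0.729), and the only metallothionein start called was that of MT2A.

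Of the 28 lists with FPKM values in both groups, 23 had a lower median FPKM at unaccompanied starts than at starts with an antisense call and 5 a higher one. Lower were RAB GTPases (7.22 against 46.7), glycolytic enzymes (59.4 against 231) and splicing factors (34.5 against 82.4), for example. Higher were aminoacyl-tRNA synthetases (68.9 against 36.9), S100 proteins (341 against 165), immediate early genes (23.2 against 10.3), tetraspan genes (35.1 against 22.9) and, by a small margin, zinc finger genes of chromosome 19 (3.41 against 3.39). Most of the 28 comparisons rest on fewer than 10 unaccompanied starts, down to 1 for keratins and for claudins. Of the classes with a higher median, only the zinc finger genes had more. Genes with both kinds of start, such as PKM, LDHA and PFKP, enter both medians with the same FPKM.

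**Figure D5:**
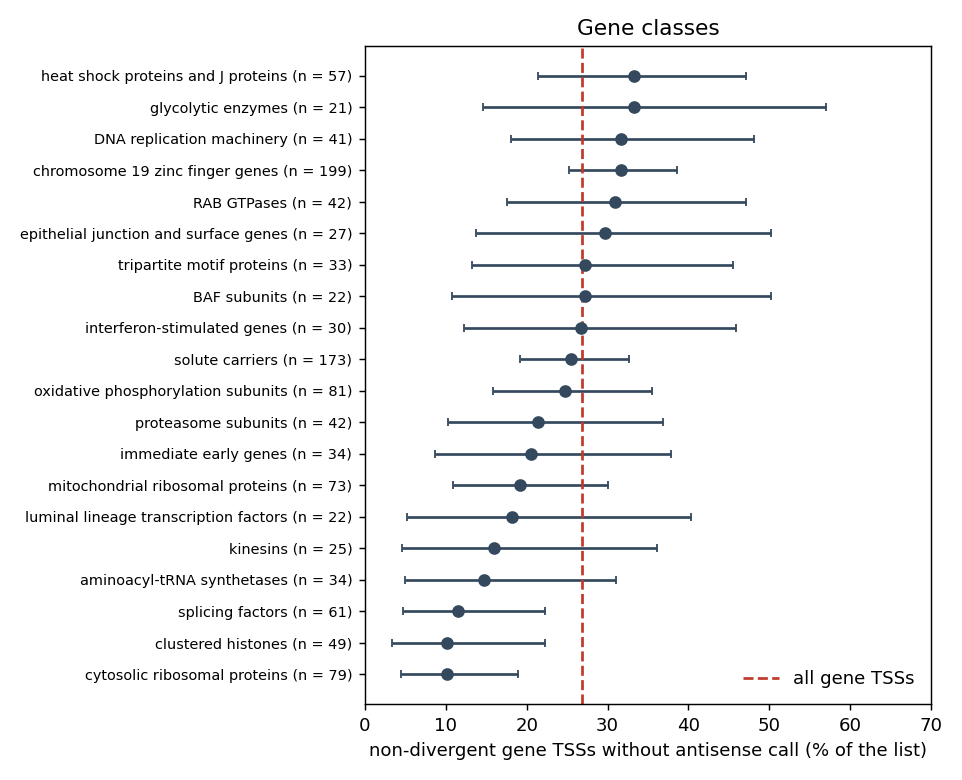
Percent of each gene class that is non-divergent and without an antisense call, for the 20 classes with at least 20 gene TSSs, with exact 95% intervals for counting error and the 26.8% of all gene TSSs as a dashed line. Cytosolic ribosomal proteins (10.1%), clustered histones (10.2%) and splicing factors (11.5%) lie below the line with their whole interval.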

How the data were processed

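The authors removed low-quality reads and adapters (cutadapt 1.2.1), aligned Start-seq reads to hg19 with Bowtie 0.12.8 and called TSSs from 1 library at a fixed read threshold. The deposited score is 0 in every row, so depth is unknown. The deposited FPKM values were estimated by the authors (TopHat2 2.0.4, Cufflinks 2.2.1) over merged replicates, in 1 column; 0 columns of per-sample values were left unused.

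Gene TSSs were assigned to the nearest GENCODE transcript start on their strand within 1000 nt (annotation lifted to GRCh37). FPKM was joined by current symbol for 9724 gene TSSs and by an older one for 584, and 83 had none. In the table, 28 symbols had become dates. CpG islands were over 200 nt long, with at least 50% GC and a CpG ratio over 0.6. Shares have exact Clopper-Pearson and medians exact order-statistic 95% intervals, checked on simulated data, which cover counting error only. Python 3.11.15, numpy 2.4.6, scipy 1.17.1, pandas 2.3.3 and matplotlib 3.10.9 were used. Named genes were the 10 highest in FPKM, the 5 highest with TATAW and outside islands, up to 3 per gene list, 3 on each side of the 1000-nt limit, the 5 highest with both kinds of start and the 5 longest at FPKM 0. The members, lists and rules were chosen with earlier results of these data known. The second Start-seq library and the FAIRE-seq and MNase-seq samples were not analysed here.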

Additional observations from a re-analysis of the deposited data

How the results depend on the processing

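Of 74 alternatives, 64 stayed within the interval of the reported value, but 38 of these were for single gene classes, whose intervals are wide. For the main results, 26 alternatives stayed within the interval, 7 moved out of it and 1 reversed. The share of unaccompanied gene TSSs, 26.8%, was 27.9% with divergence limited to 500 nt, 28.5% with daTSSs up to 1000 nt only, 24.1% without annotated opposite-strand protein-coding starts and 29.3% without another gene TSS within 5000 nt. With FPKM of at least 1, the difference of median log2 was -0.34 and the share below the accompanied median 57.3%. Counting islands within 250 nt gave a difference of -9.19 percentage points from the accompanied, against -12.1. The difference for annotated opposite-strand starts, -1.80 percentage points, reversed to 2.45 with protein-coding genes only, which leaves out lncRNAs. Without another gene TSS within 5000 nt, 30.0% of 10 clustered histone and 4.55% of 22 aminoacyl-tRNA synthetase gene TSSs were unaccompanied. The changes in the share of unaccompanied gene TSSs come from the altered definition or set of gene TSSs. The cause was not tested for the other changes. No paired analysis was possible because the calls come from 1 library and the FPKM values are 1 merged column. Repeat-masked sequence was not run, since the genome used marks no repeats.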
